A study of Homo sapiens with 8 samples.

Results

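The data compare Colo357, an established human pancreatic cancer line, with HT29, an established human colorectal cancer line, on Affymetrix HG-U133A GeneChip arrays. The members are 4 of the 8 arrays deposited: untreated HT29, HT29 exposed to the anti-CD24 monoclonal antibody SWA11 for 72 h at a dilution of 1 to 40, untreated Colo357, and Colo357 given the same exposure. Each of these 4 groups had 1 array, so a line had 2 arrays that differ in antibody state, and no line or state was replicated. All 4 were hybridised with total RNA of cultured cells that carried no shRNA vector. The other 4 arrays came from shRNA clones derived from HT29, and enter as a separate reading of HT29-derived cells and in the choice of probe sets. These are a clone with a GFP-directed shRNA, a clone with 1 vector against CD24, and 2 clones with 2 such vectors. CD24 is a small glycosylated surface protein and the study's target in both lines.

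A gene was read from its brightest probe set that carried a single symbol, which gave 11963 genes. Of these, 6780 had a mean over the 4 arrays above the median of all probe sets and were tested. Brightness was the mean over all 8 arrays, the clones included; chosen over the 4 arrays compared, the probe set changed for 136 of the 6780. Values are intensities, the deposited linear MAS5 signals, whose 2% trimmed mean was 250.1 on each of the 4 arrays. Differences are on the log2(intensity + 10) scale, Colo357 minus HT29, and a fold is the same difference on a linear scale. The added 10 makes folds of genes that are dim in one line too small. For each gene below, a pair of values gives the untreated array first and the antibody array second. The SE is limma's moderated SE with antibody state as a block, and adjusted p-values are limma's, Benjamini-Hochberg over the 6780 genes. With 1 residual degree of freedom the SE is mostly the spread pooled over genes. It measures how far the line difference moved between antibody states, not the spread between cultures. The smallest p an exact permutation of 2 against 2 arrays allows is 0.333.

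Columnar epithelia of the gut and the pancreatic duct share keratins 8, 18 and 19, and are told apart by a few lineage genes. In the intestine the transcription factors CDX1 and CDX2 drive a programme of brush border proteins, keratin 20 and intestinal adhesion molecules. The pancreas forms from PDX1-positive progenitors. Its ducts keep SOX9, keratin 7, mucin 1 and the chloride channel CFTR, while acinar cells make digestive enzymes and islet cells make hormones. Tumours of the pancreas have been sorted into a classical form with gastrointestinal genes and a basal-like form with squamous keratins and mesenchymal genes.

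The 4 arrays carried the epithelial genes their labels call for, and only some of the lineage genes. EPCAM, an epithelial adhesion protein, read 4028 and 4068 in HT29 and 3291 and 2378 in Colo357. KRT8 read 9109 and 10595 in HT29 and 6848 and 6083 in Colo357, and KRT18 read 14767 and 14357 in HT29 and 13073 and 11143 in Colo357. These structural genes of simple epithelia were bright on all 4 arrays, and neither EPCAM (log2 difference -0.53, SE 0.33, adjusted p 0.295), KRT8 (adjusted p 0.227) nor KRT18 (adjusted p 0.611) passed the test. KRT19 read 3780.2 and 7956 in HT29 and 7692 and 7453 in Colo357, and its ranges overlapped. The defining intestinal factors were dim in HT29: CDX1 read 6.5 and 3.7 and CDX2 read 3.2 and 1.8. In Colo357, CDX1 read 27 and 13.5 and CDX2 read 17.1 and 24.3. The intestinal cadherin CDH17 read 6.6 and 30.4 in HT29 and 68.8 and 8.4 in Colo357. GPA33, GUCY2C and FABP1, further intestinal markers, were at or below 48.6 on each of the 4 arrays. None of these 6 genes reached the intensity needed for testing. In Colo357, PDX1 read 14.6 and 5.1, and the acinar genes CPA1, CPB1, CELA3A, PNLIP and CEL reached at most 27.8. The islet genes INS, GCG, SST and CHGA reached at most 17.3 there. The colorectal label was thus not matched by CDX1, CDX2 or CDH17 in HT29. In Colo357, PDX1 and the acinar and islet genes were dim. The acinar and islet genes belong to pancreatic cells other than those of the duct. In the text below, HT29 and Colo357 mean the arrays that carry those labels.

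The keratin pair used to tell gut from duct did separate the lines. KRT20 read 1117 and 4016 in HT29 and 6.7 and 13.7 in Colo357, and KRT7 read 5468 and 7503 in Colo357 and 38.8 and 76.9 in HT29. KRT20 was 107-fold lower in Colo357 (log2 difference -6.74, SE 0.38, adjusted p 1.15e-06) and KRT7 was 98.5-fold higher (log2 difference 6.62, SE 0.33, adjusted p 6.57e-07). Neither gene's arrays overlapped between the lines, and the 4 HT29-derived clones lay on the HT29 side for both, at 2761 to 4799.8 for KRT20 and 83.8 to 193 for KRT7.

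Over all genes, the lines differed at many loci in both directions. Of the 6780 genes tested, 1319 were called at an adjusted p under 0.05 by limma (19.5%), 737 higher (10.9%) and 582 lower (8.58%) in Colo357. Both Colo357 arrays lay on one side of both HT29 arrays for 3405 genes (50.2%), above for 1596 (23.5%) and below for 1809 (26.7%). The nearest arrays of the lines were 2-fold or more apart for 702 genes (10.4%), of which 443 were higher (6.53%) and 259 lower (3.82%) in Colo357. Of the 1319 called genes, 1246 had the 2 lines' arrays apart. The median difference over all genes tested was -0.03. Without the antibody block the call count was 423, and with any 1 array left out it was 462 to 536, so the number of calls rests on the block and on the spread pooled over genes. A gene that is bright in only one line passes the intensity filter because it differs, so the share called over all tested genes, not 0, is the value to set beside any list.

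**Figure D1:**
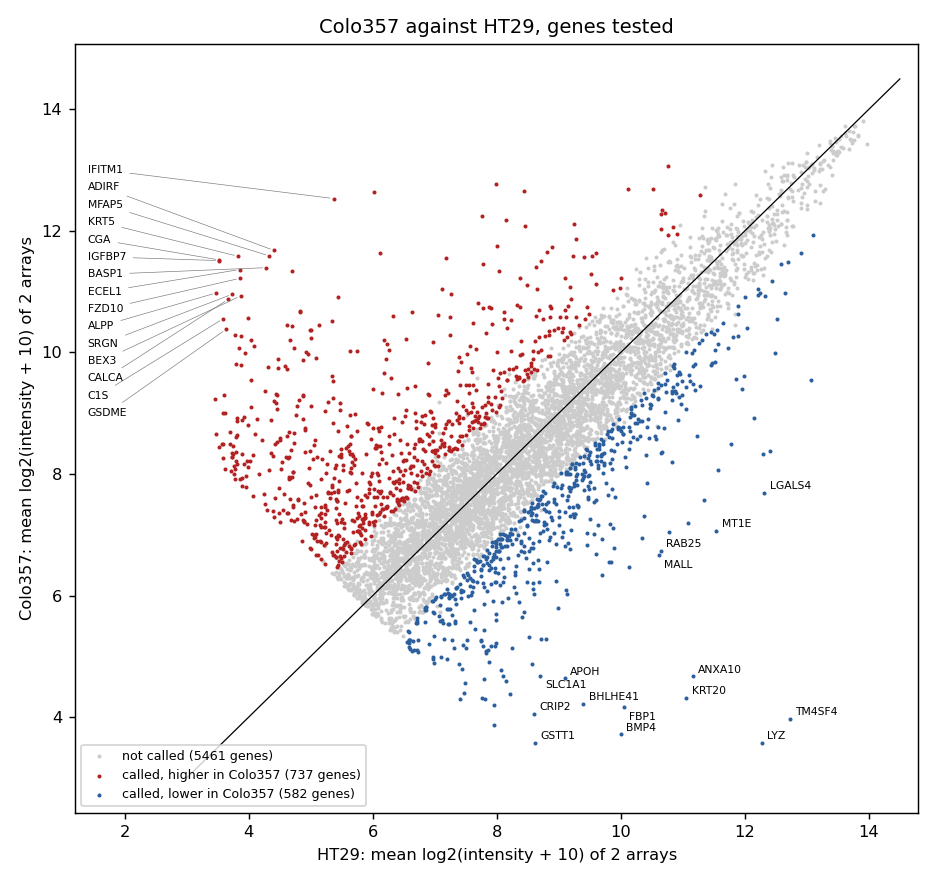
Mean log2(intensity + 10) of the 2 HT29 arrays (x axis) against that of the 2 Colo357 arrays (y axis) for the 6780 genes tested, with the 737 genes called higher in Colo357 in red, the 582 called lower in blue and the line of equality in black. The 15 called genes per direction with the widest gap between the nearest arrays, on the probe sets used, are named; CGA and IGFBP7 lie near 11.5 on the Colo357 axis and near 3.5 on the HT29 axis, and TM4SF4 and LYZ lie at the opposite corner.

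Among the widest gaps of genes higher in Colo357 was that of CGA, the alpha subunit shared by chorionic gonadotropin and the pituitary glycoprotein hormones. It read 3370.2 and 2545 in Colo357 and 1 and 2.1 in HT29 (255-fold; log2 difference 7.99, SE 0.33, adjusted p 3.79e-07). IGFBP7, a secreted protein that binds insulin-like growth factors, read 2307 and 3665 in Colo357 and 0.7 and 2.3 in HT29 (254-fold). On the probe set that is brightest over the 4 arrays it differed by 8.17 (log2), more than CGA. The clones stood apart from uncloned HT29 here, at 534 to 1119.7, all still below both Colo357 arrays. ALPP, placental alkaline phosphatase, read 2348 and 1714 in Colo357 and 1.1 and 1.1 in HT29 (182-fold; log2 difference 7.51, SE 0.33). KRT5, the keratin of basal epithelial layers, read 3640.3 and 2569 in Colo357 and 1.9 and 6.8 in HT29 (217-fold; log2 difference 7.76, SE 0.36). Both were near the lowest readings of the array on every HT29-derived array, with clone values of 0.9 to 1.2 and 2 to 4.

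The other 11 genes with the widest upward gaps were likewise dim in HT29 and bright in Colo357. ADIRF, first described in fat cell differentiation, read 2867 and 3732 in Colo357 and 11 and 11.3 in HT29. IFITM1, an interferon-induced membrane protein, read 6337 and 5517 in Colo357 and 27.6 and 35.3 in HT29. ECEL1, a neuronal membrane metallopeptidase, read 4302 and 1601 in Colo357 and 5.4 and 3.6 in HT29. MFAP5 encodes a glycoprotein of matrix microfibrils, and SRGN the granule proteoglycan serglycin. MFAP5 read 3819 and 2466 in Colo357 and 6.4 and 14.7 in HT29, and SRGN read 1488 and 2628 in Colo357 and 1.1 and 5.9 in HT29. CALCA, which encodes calcitonin and the peptide CGRP, read 2857 and 1214 in Colo357 and 3.3 and 2.1 in HT29. FZD10, a Wnt receptor, read 4599.7 and 1222 in Colo357 and 3.7 and 5.3 in HT29. In these last 2 genes the untreated Colo357 array was the brighter of the pair by more than 2-fold. GSDME, a pore-forming gasdermin, read 1215 and 1437 in Colo357 and 1 and 4 in HT29, and the complement protease C1S read 2243 and 991 in Colo357 and 1 and 3.1 in HT29. BEX3 and BASP1, both known from neural tissue, read 2376 and 1581, and 3434 and 2095, in Colo357 and at most 17.8 in HT29. Across these 15 genes the fold ran from 107-fold for GSDME to 255-fold for CGA. Most of the HT29 readings were near the floor, where the added 10 sets the size and order of these folds. With probe sets chosen over the 4 arrays 14 of the 15 stayed, and FBLN1, a matrix protein, replaced BASP1. Adjusted p-values ran up to 2.11e-06 for FZD10.

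Among genes lower in Colo357, LYZ, the antibacterial enzyme lysozyme of gastric and Paneth cells and of macrophages, had one of the widest gaps. It read 4504 and 5402 in HT29 and 3.5 and 0.6 in Colo357 (413-fold; log2 difference -8.69, SE 0.34, adjusted p 3.79e-07). The clones kept this level, at 3751 to 4665. TM4SF4, a membrane protein of the liver and intestine, read 5699 and 8015 in HT29 and 7.6 and 3.9 in Colo357 (433-fold; log2 difference -8.76, SE 0.35, adjusted p 3.79e-07). Unlike LYZ it was dim in the clones, at 1.3 to 61, so uncloned HT29 alone was bright. ANXA10, an annexin of gastric epithelium, read 2277 and 2285 in HT29 and 23.2 and 9.6 in Colo357 (89.8-fold), and BMP4, a bone morphogenetic protein, read 1249 and 819 in HT29 and 4.1 and 2.2 in Colo357 (77.9-fold). Clone values were 75.7 to 302 for ANXA10 and 1355 to 2275 for BMP4.

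Of the remaining genes with wide downward gaps, FBP1, a key enzyme of gluconeogenesis, read 1007 and 1095 in HT29 and 11.3 and 5.1 in Colo357 (log2 difference -5.88, SE 0.34). The detoxifying enzyme GSTT1 read 334 and 437 in HT29 and 1.8 and 2.1 in Colo357 (log2 difference -5.04, SE 0.33). APOH, a plasma apolipoprotein, read 557 and 518 in HT29 and 13.2 and 16.6 in Colo357. These 3 genes belong to metabolism and plasma transport. BHLHE41, a clock-related repressor, read 832 and 531 in HT29 and 2 and 18.9 in Colo357, and the metal-binding metallothionein MT1E read 2989.6 and 2957 in HT29 and 95 and 161 in Colo357. LGALS4, a galectin of the intestinal brush border, read 4582 and 5626 in HT29 and 139.6 and 275 in Colo357 and 32.5 to 682 in the clones. The clones thus spread to both sides of Colo357 for LGALS4. CRIP2, a LIM-domain protein, read 298 and 477 in HT29 and 3.4 and 10.5 in Colo357. RAB25, a small GTPase of apical recycling in epithelia, read 1518 and 1661 in HT29 and 119 and 78.5 in Colo357, and MALL, a protein of membrane rafts, read 1410.1 and 1710.1 in HT29 and 130.3 and 63.3 in Colo357. The glutamate transporter SLC1A1 read 643 and 252 in HT29 and 16.2 and 15.2 in Colo357. In each of these the lowest HT29 array was above the highest Colo357 array, and folds ran from 14.9-fold for RAB25 to 59.1-fold for FBP1.

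Among called lineage transcription factors, intestinal ones were lower in Colo357 more often than higher, and pancreatic ones were split. Counted by arrays on one side, 4 tested intestinal factors lay above HT29 and 5 below, and 2 pancreatic ones above and 5 below. Over all genes tested 23.5% lay above and 26.7% below. Of 19 intestinal factors with a value, 12 were tested, 5 were called lower and 2 higher, with a median difference of -0.66 (58.3% called, against 19.5% of all genes). Over all 19 the median was -0.16, and that of the tested members turned to 0.10 without the untreated HT29 array and to 0.23 with a filter at the 75th percentile. PPARG, a nuclear receptor of colon epithelium and fat, read 1049 and 533 in HT29 and 193 and 161 in Colo357 (log2 difference -2.03, SE 0.34, adjusted p 0.00195), and its clones lay at 890.4 to 1683. CREB3L1, an endoplasmic reticulum factor of secretory cells, read 299 and 272 in HT29 and 3.2 and 23 in Colo357 (log2 difference -3.82, SE 0.39). GATA6, which acts in both the gut and the pancreas, read 463 and 405 in HT29 and 83.6 and 215 in Colo357 (log2 difference -1.61, SE 0.39, adjusted p 0.0167). EHF, an epithelial ETS factor, read 420.1 and 219 in HT29 and 129.7 and 124 in Colo357, and MYB, a factor of crypt progenitors, read 569.6 and 102 in HT29 and 66.3 and 63.1 in Colo357, with its untreated HT29 array above the other 3. KLF4, a factor of differentiating epithelium, went the other way at 265 and 669.6 in Colo357 and 43.9 and 188 in HT29 (log2 difference 2.07, SE 0.33, adjusted p 0.0015). BCL6, a transcriptional repressor, also was higher in Colo357, at 413 and 577 against 142 and 176.

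Of 25 pancreatic factors with a value, 11 were tested, 3 were called higher and 3 lower (54.5%, against 19.5% of all genes). Their median of -0.30 turned to 0.07 without the untreated HT29 array. SOX9, the duct and progenitor factor, read 1362 and 787 in HT29 and 394 and 397 in Colo357 (log2 difference -1.37, SE 0.34, adjusted p 0.0193). It was lower in the line labelled pancreatic. FOXA1, a pioneer factor of endoderm, read 273 and 159.5 in HT29 and 91.9 and 89.5 in Colo357 (log2 difference -1.12, SE 0.34, adjusted p 0.0426), and ISL1, an islet factor, read 114 and 118 in HT29 and 10.8 and 36.4 in Colo357 (log2 difference -2.02, SE 0.37, adjusted p 0.00306). The homeobox genes HHEX and MEIS1 went the other way. HHEX, needed for early pancreas and liver buds, read 135 and 285 in Colo357 and 33.5 and 24.3 in HT29 (log2 difference 2.42, SE 0.39, adjusted p 0.00138), and MEIS1, a partner of HOX and PBX proteins, read 137 and 129 in Colo357 and 33.8 and 19 in HT29 (log2 difference 2.00, SE 0.33, adjusted p 0.00179). For both, the 2 Colo357 arrays also lay above the 4 clones.

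HOX genes, which record position along the body axis, had 24 members on the array and 10 tested. Of the latter, 3 were called higher and 2 lower (50%, against 19.5% of all genes). HOXC10 was near the floor in HT29 and bright in Colo357, at 871 and 891 in Colo357 and 6.1 and 3.4 in HT29 (60.7-fold; log2 difference 5.92, SE 0.33, adjusted p 1.03e-06), and its clones read 8.8 to 32.8. HOXC11, its neighbour in the cluster, read 195 and 473 in Colo357 and 39.9 and 43.1 in HT29 (log2 difference 2.61, SE 0.37, adjusted p 5.89e-04). HOXB2 read 236 and 467 in Colo357 and 30.9 and 45.1 in HT29 (log2 difference 2.85, SE 0.33, adjusted p 1.51e-04), but the clones, at 171 to 205, came close to untreated Colo357. HOXB9 and HOXB5 were lower in Colo357: HOXB9 read 254 and 216 in HT29 and 38.6 and 64.3 in Colo357 (log2 difference -2.02, SE 0.35, adjusted p 0.00227) and HOXB5 read 218 and 115 in HT29 and 81 and 47.9 in Colo357 (log2 difference -1.22, SE 0.32, adjusted p 0.0242). The lines thus differed in which HOX genes were bright, within the B cluster as well. The median of the tested HOX genes was 0.31, and it turned to -0.11 without the treated Colo357 array and to -0.83 against the clones.

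Of the differentiated products of the gut, some were higher in each line. The enterocyte and brush border list had 55 members on the array, 13 tested, 5 called lower and 3 higher (61.5%, against 19.5% of all genes). Villin, VIL1, which bundles actin in microvilli, read 439 and 1408 in HT29 and 1124 and 780 in Colo357, and the arrays of the lines overlapped (log2 difference 0.25, SE 0.47, adjusted p 0.765). The adhesion protein CEACAM1 read 1046 and 1196 in HT29 and 61.2 and 101 in Colo357 (log2 difference -3.67, SE 0.33, adjusted p 2.29e-05), and the oxidase NOX1 of colon epithelium read 251 and 201 in HT29 and 17.6 and 22.3 in Colo357 (log2 difference -2.97, SE 0.33, adjusted p 1.14e-04). The CEACAM family holds close relatives that can share probes. In the other direction MYO1A, brush border myosin, read 332 and 74.9 in Colo357 and 28.7 and 27.8 in HT29, and TM4SF5 read 288 and 352 in Colo357 and 18.2 and 22.2 in HT29 (log2 difference 3.45, SE 0.32, adjusted p 3.12e-05). Both stayed at or below 28.7 on every HT29-derived array.

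Mucins and other secretory products were split in the same way. With 28 on the array and 9 tested, 3 were called in each direction (66.7%, against 19.5% of all genes). MUC1, the mucin of the apical duct surface, read 1815 and 679.5 in Colo357 and 55.6 and 76.4 in HT29 (14.9-fold; log2 difference 3.90, SE 0.43, adjusted p 9.65e-05). MUC13, a membrane mucin of the gut, read 1081 and 1662 in Colo357 and 180.4 and 422 in HT29 (log2 difference 2.24, SE 0.33, adjusted p 8.76e-04), and was dim in the clones at 10 to 24.5. MUC2, the gel-forming mucin of goblet cells, was dim on all arrays, at 21.3 and 44 in HT29 and 2.2 and 25.4 in Colo357, and was not tested. CTSE, a gastric aspartic protease, read 147 and 169 in HT29 and 11.8 and 29.6 in Colo357 (log2 difference -2.51, SE 0.34, adjusted p 4.33e-04). SPINK4, a goblet cell product, read 81.1 and 115 in Colo357 and 44.2 and 24.3 in HT29.

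No acinar gene was called higher in Colo357. Of 25 acinar genes on the array 4 were tested. The 3 called lower (75%, against 19.5% of all genes) were a trypsin inhibitor and 2 trypsinogens. SPINK1, the pancreatic trypsin inhibitor, read 345 and 464 in HT29 and 25.7 and 145 in Colo357 (log2 difference -2.46, SE 0.42, adjusted p 0.00208). PRSS2 read 394 and 781 in HT29 and 102 and 339.5 in Colo357 and PRSS3 read 1831 and 3368 in HT29 and 327 and 1436 in Colo357. These trypsinogens are near-identical copies, so their probe sets may not tell them apart. Of 34 ductal genes 19 were tested, with 4 called in each direction (42.1%, against 19.5% of all genes). Counted by arrays on one side, 10 of the 19 lay below HT29 and 4 above, with a median of -0.27. Over all genes tested 26.7% lay below and 23.5% above. SPP1, the secreted phosphoprotein osteopontin, read 2169.9 and 1218 in Colo357 and 17.9 and 18.9 in HT29 (57.6-fold; log2 difference 5.85, SE 0.35, adjusted p 1.70e-06), and the tight junction protein CLDN1 read 224 and 466 in Colo357 and 40.6 and 20.9 in HT29 (log2 difference 3.08, SE 0.42, adjusted p 4.76e-04). CFTR read 167 and 9.7 in HT29 and 1.5 and 2.7 in Colo357, and was dim in Colo357 and on the treated HT29 array. The ion transporter SLC12A2 was lower in Colo357, at 114 and 107 against 913 and 217 (log2 difference -1.93, SE 0.44, adjusted p 0.0117). CD24, which is also a duct gene and the antibody's target, read 6425 and 4089.7 in HT29 and 2039 and 1849 in Colo357 (log2 difference -1.40, SE 0.33, adjusted p 0.0144). All 6 of its probe sets gave a lower reading in Colo357, with log2 differences of -1.49 to -1.13.

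The lists of pancreatic tumour subtypes pointed apart. Of 16 classical genes on the array 12 were tested, 6 called lower and 2 higher (66.7%, against 19.5% of all genes). The median was -2.16 over those tested and -1.83 over all 16. The 6 were LYZ, ANXA10, KRT20, TSPAN8, LGALS4 and CTSE. Of these, LYZ, ANXA10, KRT20 and CTSE passed the filter only through HT29. CTSE read 16.3 to 35 in the clones, which overlapped Colo357 at 11.8 and 29.6. The tetraspanin TSPAN8 read 5924 and 4968 in HT29 and 556 and 186 in Colo357 (log2 difference -4.03, SE 0.38, adjusted p 3.23e-05). These 6 genes of the classical pancreatic list were brighter in the line labelled colorectal. Of 16 basal-like genes 8 were tested, 4 called higher and none lower (50%, against 19.5% of all genes). The median of those tested was 1.59, against 0.21 over all 16. That median turned to -0.06 without the untreated Colo357 array and to -0.42 against the clones. The 4 were KRT7, LY6D, S100A2 and SERPINB3, of which LY6D and SERPINB3 passed the filter only through Colo357. LY6D, a surface protein of squamous cells, read 400.1 and 167 in Colo357 and 3.1 and 1.6 in HT29 (log2 difference 4.45, SE 0.36, adjusted p 1.17e-05), and S100A2, a calcium-binding protein of basal cells, read 3506 and 3912 in Colo357 and 301 and 1232 in HT29 (log2 difference 2.58, SE 0.43, adjusted p 0.00189). SERPINB3, a squamous cell serpin, read 409.9 and 67.5 in Colo357 and 19.1 and 13.7 in HT29, a drop between states within Colo357 that exceeded 5-fold.

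Squamous genes formed a wider group of the same kind. Of 44 on the array 18 were tested, 8 called higher and 2 lower in Colo357 (55.6%, against 19.5%). The median was 0.97 over those tested and 0.52 over all 44. KRT5, CSTA, GJB5 and KRT16 passed the filter only through Colo357. Besides KRT5, CSTA, a cysteine protease inhibitor of the cornified envelope, read 1925 and 3445 in Colo357 and 16.9 and 15 in HT29 (99.7-fold; log2 difference 6.64, SE 0.35, adjusted p 8.71e-07). GJB5, a skin connexin, read 222 and 445 in Colo357 and 3.1 and 3.3 in HT29 (log2 difference 4.62, SE 0.35, adjusted p 7.65e-06), and KRT16, a keratin of activated keratinocytes, read 78.3 and 731 in Colo357 and 6.9 and 0.9 in HT29 (log2 difference 4.24, SE 0.66, adjusted p 0.0012). KRT16 was the most uneven of these between antibody states. KRT13, the keratin of moist squamous lining, went the other way at 265 and 1150.4 in HT29 and 119 and 95.1 in Colo357 (log2 difference -2.28, SE 0.49, adjusted p 0.00855), with the treated HT29 array above the rest and the clones at 68.7 to 99.4.

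Most of the mesenchymal genes bright enough to test were higher in Colo357. Of 38 on the array 17 were tested, 11 called higher and 1 lower (70.6% called, against 19.5% of all genes). The median was 1.81 over those tested and 0.78 over all 38. VIM, SNAI2, AXL, LOXL2, MYL9 and CALD1 passed the filter only through Colo357. With the clones in place of uncloned HT29 the median of those then tested was -0.0041. Vimentin, VIM, the intermediate filament of mesenchymal cells, read 1632 and 1048 in Colo357 and 17.9 and 25.9 in HT29 (41.6-fold; log2 difference 5.38, SE 0.36, adjusted p 3.33e-06). The repressor SNAI2 read 227 and 429 in Colo357 and 1.9 and 8.7 in HT29 (log2 difference 4.43, SE 0.32, adjusted p 5.51e-06), and the receptor kinase AXL read 461 and 649 in Colo357 and 23.2 and 12.6 in HT29 (log2 difference 4.35, SE 0.36, adjusted p 1.36e-05). LOXL2, a collagen cross-linking enzyme, read 323 and 205 in Colo357 and 13.9 and 6.8 in HT29 (log2 difference 3.74, SE 0.32, adjusted p 1.73e-05), though 1 of its 3 probe sets read the same in both lines. The contractile proteins MYL9 and CALD1 read 301 and 540.4, and 382 and 409, in Colo357 against at most 30.3 in HT29. CALD1 and AXL were not low in every clone, with 76 to 665 and 13.2 to 299. The exception was S100A4, a calcium-binding protein linked to motility, which read 7409 and 9973 in HT29 and 862 and 637 in Colo357 (log2 difference -3.52, SE 0.35, adjusted p 4.58e-05) and 67.5 to 272 in the clones. CDH1, the E-cadherin gene, read 2173 and 2209.7 in HT29 and 1162 and 1349.6 in Colo357 and was not called (log2 difference -0.80, SE 0.32, adjusted p 0.111). In the 4 clones it read 1.4 to 15.4, lower than on any of the 4 arrays compared.

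The fibroblast markers summed higher in Colo357 too, at a low level. The summed intensity of 6 of 6 (COL1A1, COL1A2, COL3A1, DCN, LUM and PDGFRB) was 117 to 132 in HT29 and 243 to 249 in Colo357. COL1A2, COL3A1, DCN and PDGFRB stayed at or below 38.3 on all 4 arrays, while LUM read 107 and 49.8 in Colo357 and 0.1 and 8.2 in HT29, and COL1A1 read 101 and 103 against 81.5 and 66.7. Their part in the mesenchymal differences was not tested. In cultures read as bulk RNA, fewer cells of a type and less RNA per cell cannot be told apart. Leukocyte markers (3 of 5 with a value: PTPRC, CD3D and TYROBP) summed to at most 50.9 and endothelial markers (PECAM1, CDH5 and VWF) to at most 116 on any of the 4 arrays. Their part in the level of LYZ, which macrophages also make, was not tested.

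**Figure D2:**
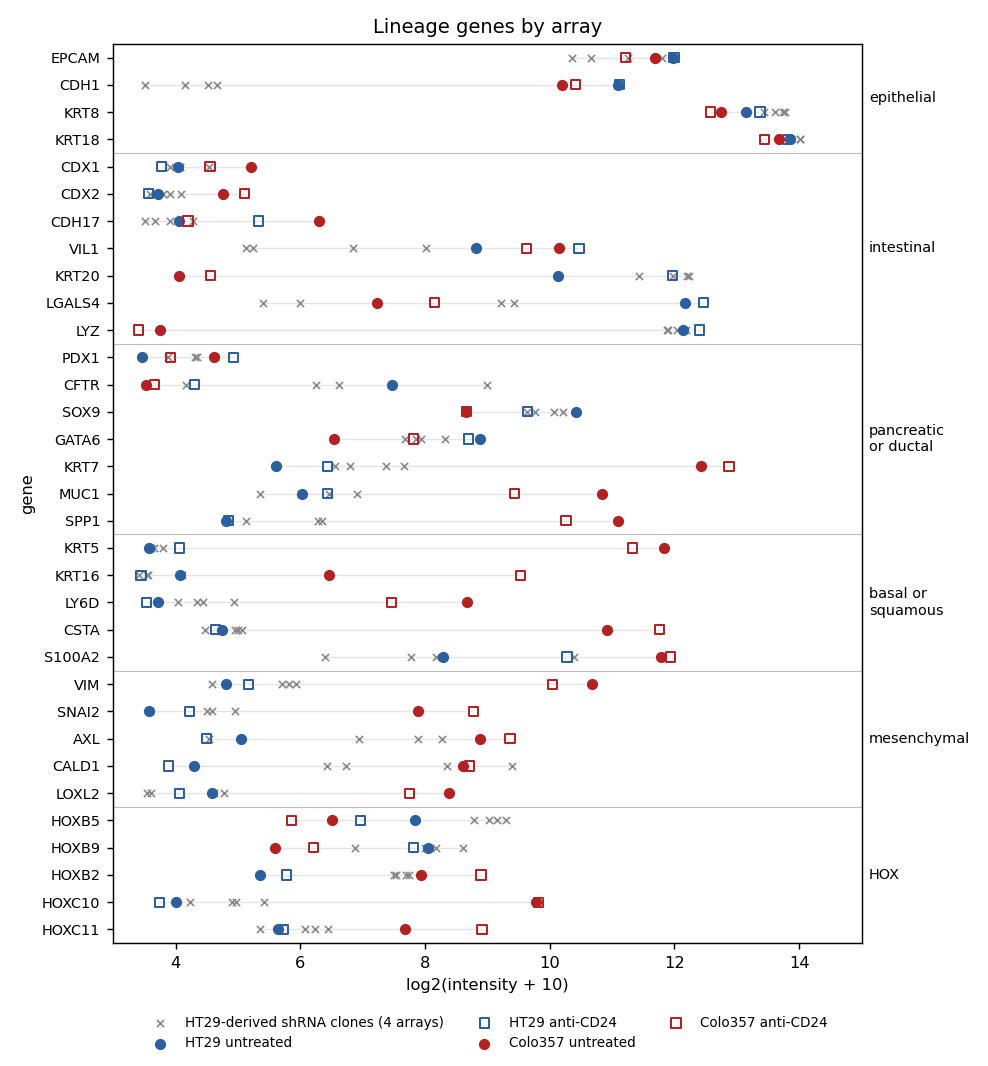
Log2(intensity + 10) of lineage genes (x axis, 1 point per array) in HT29 (blue), Colo357 (red) and the 4 HT29-derived shRNA clones (grey crosses), with filled circles for untreated and open squares for antibody-treated arrays. KRT20 and LYZ sit to the right in HT29, KRT7, KRT5, VIM and HOXC10 to the right in Colo357, and CDX1, CDX2 and PDX1 stay at the left for every array.

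At the cell surface, the 4-span families separated the lines in both directions. Of 28 tetraspanin and TM4SF genes 20 were tested, 4 called higher and 5 lower (45%, against 19.5% of all genes). TM4SF4 and TSPAN8 have been given above. TM4SF1, a surface antigen of carcinomas, read 3246 and 4261 in HT29 and 566 and 989 in Colo357 (log2 difference -2.30, SE 0.33, adjusted p 6.39e-04), and TM4SF20 read 1718 and 141 in Colo357 and 2.9 and 1.2 in HT29 (log2 difference 5.41, SE 0.61, adjusted p 1.17e-04), with the untreated Colo357 array far above the treated one. TSPAN7 read 396 and 206 in Colo357 and 7.7 and 0.9 in HT29 (log2 difference 4.41, SE 0.32, adjusted p 5.59e-06). So within one family TM4SF1 and TM4SF4 were higher in HT29, and TM4SF5 and TM4SF20 were higher in Colo357.

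Of 65 junction genes on the array 25 were tested, 5 called higher and 3 lower (32%, against 19.5% of all genes). CDH3, P-cadherin of basal cells, read 645 and 627 in Colo357 and 59.6 and 63.1 in HT29 (log2 difference 3.18, SE 0.32, adjusted p 5.34e-05). CLDN10, a claudin that forms ion-selective pores, read 1667 and 1144 in Colo357 and 12 and 20.8 in HT29 (53.4-fold; log2 difference 5.74, SE 0.36, adjusted p 2.28e-06), and CLDN3, a claudin of simple epithelia, read 1213 and 1369 in HT29 and 121 and 106 in Colo357 (log2 difference -3.40, SE 0.33, adjusted p 3.74e-05). The gap-junction gene GJB1 was lower in Colo357, at 20.6 and 27.9 against 187 and 252 (log2 difference -2.74, SE 0.32, adjusted p 1.61e-04), while GJB5 was higher. The other 17 tested members, CDH1 among them, did not pass the test.

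Of 49 tumour surface antigens and stem cell markers 34 were tested, 10 called higher and 3 lower (38.2%, against 19.5% of all genes). L1CAM, a neural adhesion protein, read 583 and 245 in Colo357 and 3.7 and 4.2 in HT29 (27.8-fold; log2 difference 4.80, SE 0.38, adjusted p 9.57e-06). Mesothelin, MSLN, an antigen of pancreatic and mesothelial tumours, read 603 and 277 in Colo357 and 35.1 and 53.4 in HT29 (log2 difference 2.97, SE 0.41, adjusted p 4.73e-04). CD55, which blocks complement at the membrane, read 2525 and 1762 in Colo357 and 97.9 and 167 in HT29 (log2 difference 3.94, SE 0.37, adjusted p 3.49e-05). All 3 were higher in Colo357 than on any HT29-derived array. ST14, the membrane protease matriptase, read 1311 and 1425 in HT29 and 199.9 and 242 in Colo357 (log2 difference -2.58, SE 0.32, adjusted p 2.52e-04), with 1 of 3 probe sets at 0.09, and the chemokine receptor CXCR4 read 243 and 261 in HT29 and 74.2 and 125 in Colo357 (log2 difference -1.30, SE 0.33, adjusted p 0.0211). Of 48 receptor tyrosine kinases 19 were tested, with 2 called higher and 3 lower (26.3%), not far from the 19.5% of all genes. FGFR4 read 649.9 and 756 in HT29 and 219.5 and 205 in Colo357 (log2 difference -1.68, SE 0.33, adjusted p 0.00475), and IGF1R, the receptor of insulin-like growth factors, read 253 and 328 in Colo357 and 124 and 72.9 in HT29 (log2 difference 1.50, SE 0.36, adjusted p 0.0152).

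Several basement membrane genes were higher in Colo357. Of 44 integrins and matrix ligands 20 were tested, 8 called higher and 2 lower (50%, against 19.5% of all genes). The median of those tested was 0.73, against 0.39 over all 44. It was 0.19 without the untreated Colo357 array and 0.13 with a filter at the 75th percentile. COL4A1 read 950.3 and 1261 in Colo357 and 3.3 and 11.8 in HT29 (64.9-fold; log2 difference 6.02, SE 0.33, adjusted p 9.41e-07), and its partner chain COL4A2 read 1931 and 1405 in Colo357 and 281 and 563 in HT29 (log2 difference 2.02, SE 0.39, adjusted p 0.00475). NID2, which links collagen and laminin, read 334 and 348 in Colo357 and 5.9 and 1.2 in HT29 (log2 difference 4.72, SE 0.33, adjusted p 4.73e-06). COL7A1, the collagen of anchoring fibrils, read 114 and 325 in Colo357 and 22.1 and 7.6 in HT29. Of their receptors, ITGA5, part of the fibronectin receptor, read 98.1 and 344 in Colo357 and 24.9 and 34.7 in HT29 (log2 difference 2.31, SE 0.38, adjusted p 0.00188). The proteoglycans HSPG2 and AGRN went the other way: HSPG2, perlecan, read 461 and 228 in HT29 and 151 and 74.3 in Colo357 (log2 difference -1.52, SE 0.32, adjusted p 0.00775) and AGRN, agrin, read 1394 and 1064 in HT29 and 835 and 239 in Colo357 (log2 difference -1.42, SE 0.39, adjusted p 0.0272). Of the 4 AGRN probe sets, 1 differed the other way by 0.08.

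Antigen presentation was brighter in Colo357. Of 41 MHC and processing genes 20 were tested, 12 called higher and 1 lower (65% called, against 19.5% of all genes). The median was 1.35 over those tested and 0.36 over all 41. PSMB9 and PSMB8, subunits of the immunoproteasome, read 1232 and 1920.3 in Colo357 and 33.7 and 138 in HT29 for PSMB9 (log2 difference 4.27, SE 0.37, adjusted p 1.68e-05) and 862 and 826 in Colo357 and 109.8 and 297 in HT29 for PSMB8 (log2 difference 2.15, SE 0.39, adjusted p 0.00312). ERAP1, which trims peptides, read 424 and 228 in Colo357 and 43.4 and 56.1 in HT29 (log2 difference 2.44, SE 0.37, adjusted p 9.86e-04). HLA-B read 4686 and 5279.7 in Colo357 and 1263 and 2003 in HT29 (log2 difference 1.64, SE 0.33, adjusted p 0.00609) and HLA-F read 1897 and 2582 in Colo357 and 614 and 964 in HT29 (log2 difference 1.51, SE 0.32, adjusted p 0.00824). HLA class I genes are close copies with many alleles, so a probe set may read several of them or bind one line's allele less well, which was not tested. The stress ligand MICA was the exception, at 173 and 451 in HT29 and 28 and 90.9 in Colo357 (log2 difference -2.23, SE 0.32, adjusted p 6.88e-04).

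Interferon-stimulated genes did not all go one way. Of 42 on the array 31 were tested, 11 called higher and 3 lower (45.2%, against 19.5% of all genes). The median was 0.78, against 0.52 over all 42. IFITM2 read 8169.7 and 5069 in Colo357 and 203 and 552 in HT29 (log2 difference 4.22, SE 0.46, adjusted p 8.88e-05), and IFITM3 read 7823 and 6268 in Colo357 and 133 and 444 in HT29 (log2 difference 4.78, SE 0.45, adjusted p 3.12e-05). The IFITM genes are near-identical, and their probe sets may share signal. MX1, an antiviral GTPase, read 266 and 246 in Colo357 and 54.9 and 88.8 in HT29 (log2 difference 1.73, SE 0.34, adjusted p 0.00521), and its GFP-shRNA clone read 827.5, above both Colo357 arrays. IRF7, a factor that turns on interferon genes, read 302 and 619 in HT29 and 24.4 and 34.6 in Colo357 (log2 difference -3.50, SE 0.34, adjusted p 3.79e-05), the opposite direction.

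Some hormone and placental genes were bright in Colo357; they are named singly and come from no fixed list of hormones. CGA, ALPP and CALCA have been given above. ALPG and CALCB, close relatives of ALPP and CALCA were named after their values were seen. ALPG read 1247 and 848 in Colo357 and 36.5 and 52.3 in HT29, and CALCB read 375 and 326 in Colo357 and 1.9 and 2.1 in HT29. Alkaline phosphatase genes are near-identical in sequence, so ALPG and ALPP may share signal. INHBB, a subunit of activin B, read 367 and 683 in Colo357 and 1.8 and 2.8 in HT29 (41.6-fold; log2 difference 5.38, SE 0.34, adjusted p 2.60e-06), and INHA, the inhibin alpha subunit, read 168 and 114 in Colo357 and 14.1 and 26.5 in HT29 (log2 difference 2.32, SE 0.37, adjusted p 0.00129). STC1, the hormone stanniocalcin, read 846 and 451 in Colo357 and 2.8 and 27.6 in HT29 (log2 difference 4.84, SE 0.50, adjusted p 6.14e-05).

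The promoter of CGA is shown because this gene is among those with the widest upward gaps. It holds a tandem pair of the cyclic AMP response element TGACGTCA, which is the same on both strands. Bases -160 to -71 before the start on the minus strand (chr6:87095177-87095266, GRCh38.p14, RefSeq) are printed 5′ to 3′ with both matches in capitals; they begin 142 and 124 bases before the start.
CGA: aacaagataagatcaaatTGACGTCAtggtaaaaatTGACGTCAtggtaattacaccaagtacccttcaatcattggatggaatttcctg
The 8 letters occur in the 250 bases before the start of 1.65% of 35116 RefSeq promoters (578 of them), of 2.73% of those of tested genes and of 2.37% of those of genes called higher in Colo357. A match of letters does not show that a factor is bound there.

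The growth factor and morphogen list had 158 members on the array and 46 tested, of which 19 were called higher and 4 lower (50%, against 19.5%). Their median of 0.87, against 0.17 over all 158, was 0.28 without the treated Colo357 array and -0.09 with the clones as the HT29 side. EFNA1, an ephrin ligand, read 2206 and 1791 in Colo357 and 110.4 and 187 in HT29 (log2 difference 3.70, SE 0.36, adjusted p 3.99e-05), and the activin inhibitor FSTL3 read 277 and 719 in Colo357 and 18.7 and 48.5 in HT29 (log2 difference 3.48, SE 0.33, adjusted p 3.12e-05). PDGFA, a platelet-derived growth factor chain, read 347 and 247 in Colo357 and 29 and 59.9 in HT29 (log2 difference 2.54, SE 0.38, adjusted p 9.23e-04). TGFB1, transforming growth factor beta 1, was lower in Colo357, at 199 and 362 against 894 and 1287 (log2 difference -1.96, SE 0.33, adjusted p 0.00184). BMP4, given above, was the other large downward difference of this list.

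IGF-binding proteins, which carry insulin-like growth factors outside the cell, were called higher in Colo357 for 4 of the 6 tested. None was called lower (66.7% called, against 19.5% of all genes). IGFBP1, IGFBP3 and IGFBP7 passed the filter only through Colo357. With a filter at the 75th percentile fewer of them were tested and the median moved from 5.12 to -0.05. IGFBP2 read 3729.8 and 2685 in Colo357 and 64.7 and 54.5 in HT29 (45.7-fold; log2 difference 5.52, SE 0.32, adjusted p 1.53e-06), and IGFBP1 read 515 and 614 in Colo357 and 11.1 and 12.3 in HT29 (log2 difference 4.72, SE 0.32, adjusted p 3.84e-06). IGFBP3 read 4171 and 454 in Colo357 and 2.2 and 39.9 in HT29 (log2 difference 5.82, SE 0.87, adjusted p 9.07e-04), with the untreated Colo357 array far above the treated one. IGFBP7 was given above. For IGFBP1, IGFBP2 and IGFBP3 the clones were dim, at up to 18.4, whereas for IGFBP7 they were not.

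Chemokines of one cluster on chromosome 4 were bright in Colo357. Of 134 chemokines, cytokines and receptors on the array 30 were tested, 13 called higher and 4 lower (56.7%, against 19.5% of all genes). The median was 0.69 over those tested and 0.21 over all 134. CXCL1, CXCL2, CXCL3, CXCL5 and CXCL6 passed the filter only through Colo357, and so did IL32 and OSMR below. CXCL1 read 1974 and 1315 in Colo357 and 21.6 and 15.6 in HT29 (57-fold; log2 difference 5.83, SE 0.32, adjusted p 1.13e-06), and CXCL5 read 1063 and 945 in Colo357 and 5.8 and 4.9 in HT29 (66-fold; log2 difference 6.04, SE 0.32, adjusted p 8.71e-07). These and the next 4 genes encode neutrophil-attracting ligands of the receptors CXCR1 and CXCR2. CXCL2 read 369 and 465 in Colo357 and 19.8 and 20.1 in HT29 (log2 difference 3.82, SE 0.33, adjusted p 1.60e-05), and CXCL6 read 180.4 and 322 in Colo357 and 10.1 and 2.1 in HT29 (log2 difference 4.01, SE 0.40, adjusted p 4.95e-05). CXCL3 and CXCL8 lie in the same cluster and were named after their values were seen. CXCL3 read 286 and 366 in Colo357 and 26.4 and 17.7 in HT29 (log2 difference 3.39, SE 0.34, adjusted p 5.19e-05), and CXCL8 read 564 and 2439 in Colo357 and 36.2 and 103 in HT29 (log2 difference 4.04, SE 0.35, adjusted p 1.65e-05). In all 6 genes both Colo357 arrays were above both HT29 arrays. The clones reached 76.7 to 392 for CXCL8, and at most 77.7 for the other 5. CXCL1, CXCL2 and CXCL3 are close copies, and their probe sets may share signal.

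The stretches before the starts of these 6 genes are shown because the genes lie together and were called in the same direction. Each runs from base -110 to base -51 before the start, 5′ to 3′ on the gene's own strand, from RefSeq on GRCh38.p14. Capitals mark the 9 letters GGAATTTCC, the centre of an NF-kB-type site, searched on both strands over the 250 bases before the start. The positions are chr4:73869283-73869342 for CXCL1, chr4:73836568-73836627 for CXCL6 and chr4:73740459-73740518 for CXCL8 on the plus strand. On the minus strand they are chr4:74099246-74099305 for CXCL2, chr4:74038740-74038799 for CXCL3 and chr4:73998728-73998787 for CXCL5.
CXCL1: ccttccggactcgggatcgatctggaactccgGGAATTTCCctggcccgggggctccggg
CXCL2: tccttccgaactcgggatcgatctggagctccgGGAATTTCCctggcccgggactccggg
CXCL3: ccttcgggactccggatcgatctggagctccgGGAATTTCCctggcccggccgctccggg
CXCL5: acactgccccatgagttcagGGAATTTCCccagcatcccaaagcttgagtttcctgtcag
CXCL6: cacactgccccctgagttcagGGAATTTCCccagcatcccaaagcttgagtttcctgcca
CXCL8: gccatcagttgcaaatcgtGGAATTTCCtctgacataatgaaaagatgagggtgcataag
The motif began 77 to 91 bases before the start in all 6, on the gene's own strand, and occurs in 0.413% of all 35116 promoters (145 of them) and in 0.498% of those of tested genes. CXCL1, CXCL2 and CXCL3 share most of their flanking bases, and so do CXCL5 and CXCL6, so the 6 are not independent. The stretch of CGA printed above also holds these 9 letters, near its 3′ end and there in lower case. The letters describe the sequence, and binding was not measured.

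Beyond the cluster, IL32, a cytokine of epithelial and immune cells, read 847 and 1799 in Colo357 and 1.7 and 6.1 in HT29 (90.7-fold; log2 difference 6.50, SE 0.34, adjusted p 7.85e-07). OSMR, the oncostatin M receptor, read 383 and 143 in Colo357 and 4.2 and 5.5 in HT29 (log2 difference 4.04, SE 0.40, adjusted p 4.34e-05), and IL6, named after its values were seen, read 161 and 755 in Colo357 and 11.1 and 12 in HT29. IL1RN, the interleukin-1 receptor antagonist, went the other way at 88.3 and 758 in HT29 and 8.9 and 24.7 in Colo357 (log2 difference -3.42, SE 0.46, adjusted p 4.13e-04), and so did the receptor IL22RA1, at 419.8 and 361 in HT29 and 192 and 143 in Colo357. The S100 proteins S100A9 and S100A8, which act together in inflamed epithelium, were higher in Colo357. S100A9 read 774 and 1456 in Colo357 and 17.9 and 15.3 in HT29 (log2 difference 5.33, SE 0.36, adjusted p 3.67e-06) and S100A8 read 135 and 257 in Colo357 and 26.2 and 18.5 in HT29 (log2 difference 2.62, SE 0.37, adjusted p 6.48e-04).

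Complement and plasma proteins were also split by line. Of 64 liver and plasma genes 18 were tested, 8 called higher and 4 lower (66.7%, against 19.5% of all genes). The median of those tested was 0.95, against 0.077 over all 64. With 1 array left out it ran from 0.38 to 3.29, and it was -0.095 with all 8 arrays and -0.54 against the clones. The complement genes C1S, C1R and C3 were higher in Colo357, where C1R read 1199 and 733 against 8.5 and 16.7, and C3 read 1465 and 594 against 21.1 and 17.5 (log2 difference 5.01, SE 0.37, adjusted p 5.47e-06). CFB, complement factor B, read 454 and 275 in Colo357 and 2.3 and 47 in HT29 (log2 difference 3.78, SE 0.56, adjusted p 7.95e-04), and CLU, clusterin, read 703 and 1244 in Colo357 and 35.6 and 109.5 in HT29 (log2 difference 3.68, SE 0.33, adjusted p 2.51e-05). HT29 held more of other plasma proteins: SERPINA1, alpha-1 antitrypsin, read 1465 and 3160.2 in HT29 and 103 and 179.6 in Colo357 (log2 difference -3.89, SE 0.33, adjusted p 1.48e-05), and the clones were brighter still at 5969.9 to 11571. APOH was higher in the clones as well, at 1542 to 2019.

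Secreted proteases and inhibitors differed in kind. Of 158 on the array 68 were tested, 26 called higher and 14 lower (58.8%, against 19.5% of all genes). The median was 0.45, against 0.10 over all 158. It was 0.052 without the untreated Colo357 array, -0.017 with a filter at the 75th percentile and -0.09 against the clones. Kallikreins were bright in uncloned HT29. KLK6 read 3705 and 5534 in HT29 and 443 and 503 in Colo357 (log2 difference -3.23, SE 0.33, adjusted p 5.33e-05). KLK10 read 5219 and 6319 in HT29 and 1252 and 814 in Colo357 (log2 difference -2.50, SE 0.35, adjusted p 5.77e-04). KLK11 read 1286 and 2341 in HT29 and 135 and 111 in Colo357 (log2 difference -3.72, SE 0.37, adjusted p 4.39e-05). The clones kept KLK6 at 2517 to 5818. They lay on both sides of Colo357 for KLK10, at 702 to 2320, and below both Colo357 arrays for KLK11, at 15.2 to 31.3. The lysosomal protease CTSH was lower in Colo357 too, at 310.1 and 216 against 2623 and 3489. In Colo357 the plasminogen activator PLAU read 284 and 3457, against 14.3 and 30 in HT29 (log2 difference 5.02, SE 0.55, adjusted p 9.29e-05). Its 2 Colo357 arrays differed by over 10-fold, the treated one being the brighter. Several inhibitors were higher in Colo357: SLPI, the leukocyte protease inhibitor, read 4175 and 5654 in Colo357 and 107 and 388 in HT29 (log2 difference 4.49, SE 0.38, adjusted p 1.60e-05), TIMP3 read 304 and 967 in Colo357 and 24.5 and 19.8 in HT29 (log2 difference 4.11, SE 0.43, adjusted p 7.04e-05), and TFPI2 read 115 and 749 in Colo357 and 3.8 and 0.5 in HT29 (log2 difference 4.68, SE 0.57, adjusted p 2.00e-04). PRSS21, a membrane serine protease of testis, read 395 and 707 in Colo357 and 16.7 and 7.9 in HT29.

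**Figure D3:**
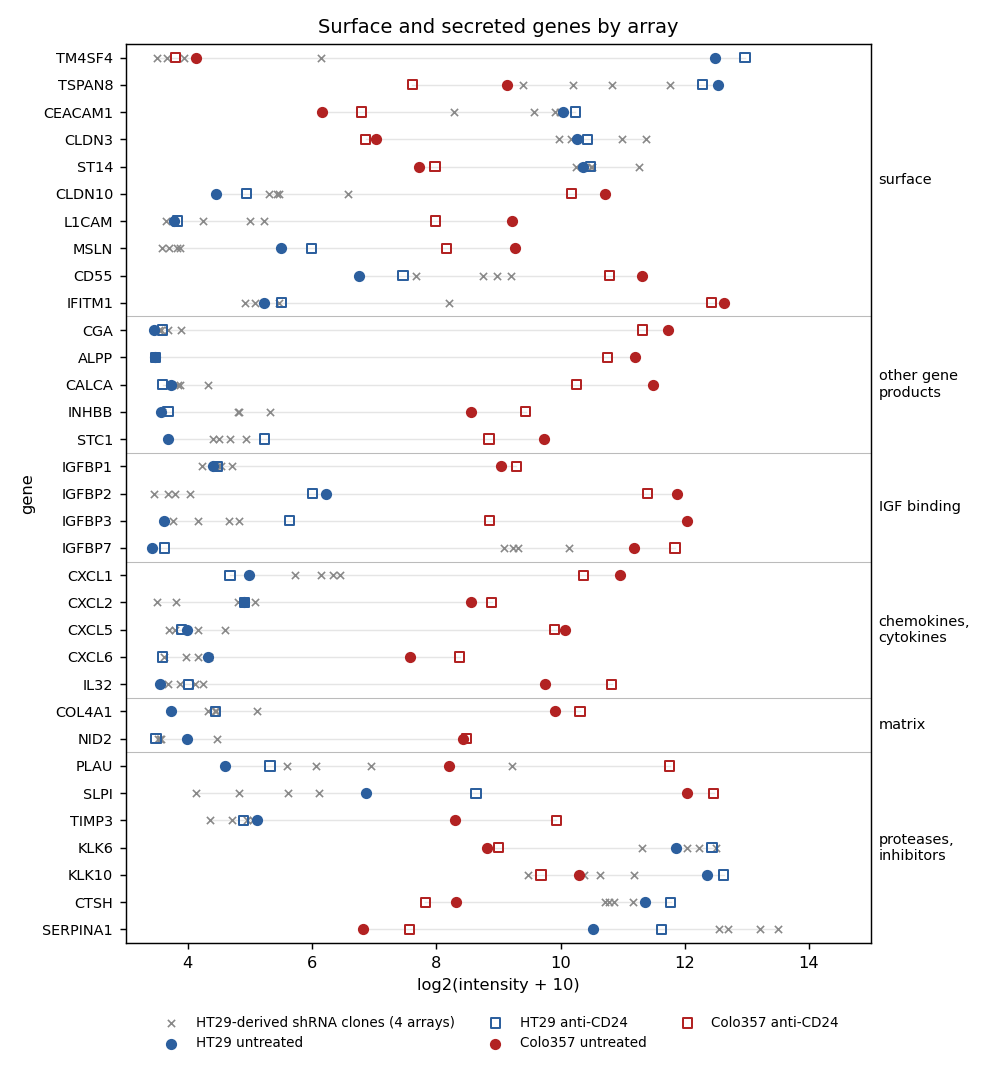
Log2(intensity + 10) of surface and secreted genes (x axis, 1 point per array) in HT29 (blue), Colo357 (red) and the 4 HT29-derived shRNA clones (grey crosses), with filled circles for untreated and open squares for antibody-treated arrays. CGA, ALPP, CALCA, INHBB, STC1, the IGF-binding proteins and the chemokines lie to the right in Colo357, the kallikreins, CTSH and SERPINA1 to the right in HT29, and IGFBP3 and PLAU show wide spacing between the 2 Colo357 arrays.

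In metabolism, the core energy pathways had the smallest shares of called genes among the lists. Of 68 respiratory chain genes tested among 72 on the array, 1 was called higher and 2 lower (4.41%, against 19.5% of all genes). UQCRC1, a core protein of complex III, was the one higher in Colo357, at 3706 and 4179.6 against 1793 and 2032 (log2 difference 1.04, SE 0.32, adjusted p 0.046). UQCR10, a small subunit of the same complex, was lower, at 2766 and 2860 against 5202 and 7203 (log2 difference -1.12, SE 0.33, adjusted p 0.037), as was ATP5ME of the ATP synthase (log2 difference -1.64, SE 0.34, adjusted p 0.0071). Of 33 genes tested for the tricarboxylic acid cycle and pentose phosphate pathway, none was called higher and 2 were called lower (6.06%). They were GPT, alanine aminotransferase, at 82 and 89.3 in HT29 and 21.2 and 34.2 in Colo357 (log2 difference -1.36, SE 0.33, adjusted p 0.0153), and SUCLG2, a subunit of succinyl-CoA ligase, at 282 and 259 in HT29 and 199.7 and 50.3 in Colo357 (log2 difference -1.32, SE 0.41, adjusted p 0.0497), where 1 of 4 probe sets gave 0.21. By an unadjusted p under 0.05, 2254 of all tested genes passed.

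Glycolysis and hypoxia genes had 9 called higher and 2 lower of 42 tested (26.2%), not far from the 19.5% of all genes. HIF1A and EPAS1, the alpha subunits of hypoxia-inducible factors, read 2276 and 1262 in Colo357 and 482 and 434 in HT29 for HIF1A (log2 difference 1.87, SE 0.34, adjusted p 0.00319) and 2749 and 2637 in Colo357 and 265 and 562 in HT29 for EPAS1 (log2 difference 2.77, SE 0.37, adjusted p 3.74e-04). BNIP3, a mitochondrial protein induced in low oxygen, read 298 and 259.7 in Colo357 and 0.8 and 11.1 in HT29 (19.1-fold; log2 difference 4.25, SE 0.37, adjusted p 1.81e-05), and NDRG1 read 3097 and 1438 in Colo357 and 299 and 510.4 in HT29 (log2 difference 2.40, SE 0.43, adjusted p 0.00299). The gluconeogenic enzyme FBP1, given above, was lower in Colo357 by the largest amount in this list.

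Of 66 amino acid and nitrogen metabolism genes on the array 47 were tested. Among the 47, 16 were called higher, 4 lower and 27 not called (42.6% called, against 19.5% of all genes). Their median of 0.19 was 0.024 with probe sets chosen over the 4 arrays, -0.0056 with all 8 arrays and -0.011 with a filter at the 75th percentile. CPS1, carbamoyl phosphate synthetase of the urea cycle, read 2363 and 572 in Colo357 and 0.6 and 15.5 in HT29 (71.5-fold; log2 difference 6.16, SE 0.61, adjusted p 4.39e-05), and ASS1, argininosuccinate synthase of the same cycle, read 6736 and 3146 in Colo357 and 134 and 552 in HT29 (log2 difference 4.02, SE 0.58, adjusted p 6.49e-04). The next 3 genes act on glycine, cysteine and tryptophan. GLDC, the glycine decarboxylase, read 394 and 249 in Colo357 and 5.8 and 1.5 in HT29 (log2 difference 4.58, SE 0.32, adjusted p 4.73e-06), and CBS, of cysteine synthesis, read 187 and 202 in Colo357 and 14.6 and 4.8 in HT29 (log2 difference 3.42, SE 0.35, adjusted p 5.40e-05). KYNU, which breaks down kynurenine, read 1119 and 472 in Colo357 and 38.3 and 25 in HT29 (log2 difference 4.17, SE 0.34, adjusted p 1.33e-05). SMOX, spermine oxidase, was also higher, at 1597 and 1820.2 against 199.7 and 252, but the clones reached 514 to 1673. PYCR1, of proline synthesis, and TYMS, thymidylate synthase, were lower, at 233 and 518 against 752 and 919 for PYCR1 and 2041 and 1232 against 4165 and 3455 for TYMS.

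Lipid genes differed in both directions. Of 60 fatty acid genes 38 were tested, 8 called higher and 7 lower (39.5%, against 19.5% of all genes). ELOVL5, an elongase of polyunsaturated fatty acids, read 1392 and 1069 in Colo357 and 2.6 and 7.1 in HT29 (83.8-fold; log2 difference 6.39, SE 0.35, adjusted p 9.41e-07) on its brightest probe set, while 1 of its 3 probe sets differed by -0.37 on the log2 scale. The prostaglandin enzymes PTGS2 and PTGES were higher in Colo357: PTGS2 read 263 and 486 in Colo357 and 8.5 and 15.8 in HT29 (log2 difference 4.08, SE 0.33, adjusted p 1.11e-05) and PTGES read 858 and 1250.1 in Colo357 and 37.7 and 41.3 in HT29 (log2 difference 4.40, SE 0.33, adjusted p 6.49e-06). ACSL5, an acyl-CoA synthetase of the gut, was lower, at 704 and 959.8 in HT29 and 68.6 and 72.7 in Colo357 (log2 difference -3.37, SE 0.33, adjusted p 4.02e-05). The cholesterol list, which is not limited to synthesis enzymes, had 5 called lower and 1 higher of 22 tested (27.3%, against 19.5% of all genes). LSS, lanosterol synthase, read 585 and 827 in HT29 and 256 and 135 in Colo357 (log2 difference -1.85, SE 0.39, adjusted p 0.00733), and SQLE, squalene epoxidase, read 3193 and 4469 in HT29 and 1381 and 1077 in Colo357 (log2 difference -1.62, SE 0.35, adjusted p 0.00826). ABCG1, a cholesterol exporter, was the one called higher, at 214 and 450.3 against 31.9 and 48.9 (log2 difference 2.69, SE 0.33, adjusted p 2.33e-04).

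Drug and steroid metabolism genes had 15 called higher and 8 lower of 74 tested (31.1%, against 19.5% of all genes). The glutathione transferase GSTM3 read 845 and 1339 in Colo357 and 5.5 and 3.3 in HT29 (74.8-fold; log2 difference 6.22, SE 0.35, adjusted p 1.15e-06), against the opposite pattern of GSTT1. GSTM1 read 143 and 124 in Colo357 and 20.6 and 26.8 in HT29, and GSTM genes share probes. ABCC2, an apical drug exporter, read 582 and 212 in Colo357 and 1 and 2.7 in HT29 (log2 difference 4.94, SE 0.41, adjusted p 1.36e-05), and CYP24A1, which inactivates vitamin D, read 277 and 175 in Colo357 and 20.9 and 21.1 in HT29 (log2 difference 2.89, SE 0.34, adjusted p 1.51e-04). HSD17B1, an enzyme of oestradiol synthesis, read 169 and 533 in Colo357 and 16.7 and 13.8 in HT29 (log2 difference 3.63, SE 0.42, adjusted p 1.53e-04). ABCG2 and ALDH1A1, a drug exporter and an aldehyde dehydrogenase used as stem cell markers, were higher in uncloned HT29. ABCG2 read 961 and 609 in HT29 and 249 and 131 in Colo357 (log2 difference -2.02, SE 0.32, adjusted p 0.00142), and ALDH1A1 read 4320.2 and 3629 in HT29 and 1019 and 428 in Colo357 (log2 difference -2.56, SE 0.36, adjusted p 5.38e-04). In the clones they read 21 to 107 and 2.3 to 86.4, below both lines' arrays for both genes.

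Transporters, channels and glycosyltransferases were mixed. Solute carriers had 16 called lower and 9 higher of 106 tested (23.6%), not far from the 19.5% of all genes. SLC7A5, a large neutral amino acid transporter, read 6326 and 3995 in Colo357 and 1981 and 1414 in HT29 (log2 difference 1.58, SE 0.32, adjusted p 0.00648), and the zinc transporters pointed apart, SLC39A6 at 3526 and 1596 in Colo357 and 653 and 446 in HT29 (log2 difference 2.12, SE 0.33, adjusted p 0.0013) and SLC39A4 at 959 and 932 in HT29 and 201 and 173 in Colo357 (log2 difference -2.28, SE 0.32, adjusted p 6.01e-04). Of ion channels and pumps 12 were called higher and 5 lower of 31 tested (54.8%, against 19.5% of all genes). The calcium-activated potassium channel KCNN4 read 498 and 481 in Colo357 and 17.5 and 16.8 in HT29 (18.4-fold; log2 difference 4.20, SE 0.32, adjusted p 7.65e-06), and the chloride channel ANO1 read 473 and 584 in HT29 and 159 and 94.1 in Colo357 (log2 difference -2.01, SE 0.36, adjusted p 0.00276). The list of glycosyltransferases also holds sulphotransferases. Of its 54 tested genes 13 were called higher and 11 lower (44.4%, against 19.5% of all genes). FUT3, which makes Lewis antigens, read 369 and 253 in Colo357 and 22.7 and 48.3 in HT29 (log2 difference 2.85, SE 0.39, adjusted p 4.37e-04), GCNT3, a mucin core enzyme, read 3659.9 and 3330.2 in HT29 and 277 and 439 in Colo357 (log2 difference -3.29, SE 0.34, adjusted p 6.82e-05), and HS3ST1, a heparan sulphate sulphotransferase, read 205 and 212 in HT29 and 8 and 11.8 in Colo357 (log2 difference -3.46, SE 0.32, adjusted p 3.12e-05), with 1 of 3 probe sets at 0.19.

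**Figure D4:**
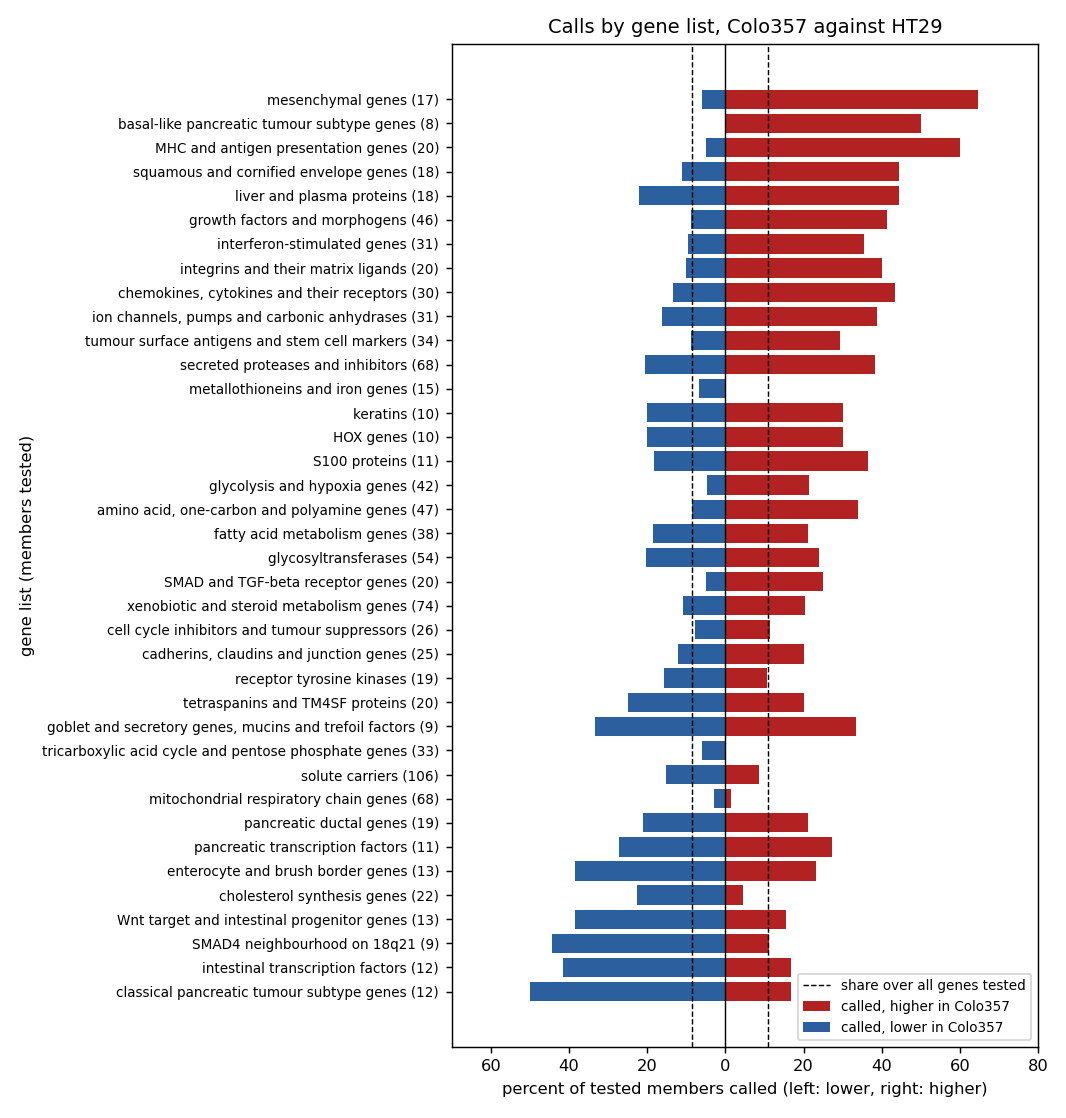
Percent of the tested members of each gene list with 8 or more tested called higher (red, to the right) or lower (blue, to the left) in Colo357, with the number tested in brackets and dashed lines at the share over all genes tested, 10.9% higher and 8.58% lower. Lists are ordered by their median difference; mesenchymal genes lie at the top, classical pancreatic tumour subtype genes at the bottom, and respiratory chain genes stay inside both dashed lines.

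Signalling and tumour suppressor genes included the pancreatic suppressor SMAD4, which carries signals of the TGF-beta family to DNA. SMAD4 read 192 and 72.1 in Colo357 and 27.9 and 20.2 in HT29 (log2 difference 1.93, SE 0.36, adjusted p 0.00349). Its second probe set differed by 0.22 on the log2 scale. Of 32 SMAD and TGF-beta receptor genes 20 were tested, 5 called higher and 1 lower (30%, against 19.5% of all genes). TGFBR1, the type I receptor, read 176 and 133 in Colo357 and 24.9 and 30.4 in HT29 (log2 difference 2.12, SE 0.33, adjusted p 0.0013), and the target gene ID3 read 435 and 1818 in Colo357 and 3.1 and 4.6 in HT29 (65.2-fold; log2 difference 6.03, SE 0.44, adjusted p 5.44e-06). BAMBI, a decoy receptor, read 399 and 965 in Colo357 and 21.5 and 17.5 in HT29 (log2 difference 4.42, SE 0.39, adjusted p 2.14e-05). A list of genes near SMAD4 on chromosome 18 had 15 on the array and 9 tested. Of the 9, 1 was called higher, 4 lower and 4 not called (55.6% called, against 19.5% of all genes). The 4 lower were MEX3C, ACAA2, SKA1 and LIPG. Over all of chromosome 18, 19.3% of 88 tested genes were called lower, against 8.58% of all genes. MEX3C read 257 and 172 in HT29 and 64.1 and 63.7 in Colo357 (log2 difference -1.57, SE 0.33, adjusted p 0.00776), and LIPG, endothelial lipase, read 291 and 232 in HT29 and 21.6 and 102 in Colo357 (log2 difference -2.19, SE 0.46, adjusted p 0.00779).

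CDKN2A, the cell cycle inhibitor often lost in pancreatic cancer, read 2409 and 3012 in HT29 and 2434 and 2905 in Colo357, and did not differ beyond its SE (log2 difference -0.02, SE 0.32, adjusted p 0.979). Cyclin D1, CCND1, read 1329 and 1756 in Colo357 and 123 and 164 in HT29 (log2 difference 3.34, SE 0.32, adjusted p 3.84e-05). RNF43, a Wnt receptor ligase, read 714 and 459 in HT29 and 75.8 and 129 in Colo357 (log2 difference -2.41, SE 0.38, adjusted p 0.00131), and the kinase gene STK11 read 204 and 158 in HT29 and 49.8 and 75.7 in Colo357 (log2 difference -1.41, SE 0.35, adjusted p 0.0181). Of the cancer-testis antigens, 2 of 27 on the array were bright enough to test, both through their Colo357 arrays, since the HT29 arrays read near the floor. The median over all 27 was -0.037. MAGEA11 read 239.5 and 640.1 in Colo357 and 0.6 and 1.7 in HT29 (log2 difference 5.18, SE 0.38, adjusted p 5.44e-06) and PRAME read 235 and 271 in Colo357 and 13 and 20.2 in HT29 (log2 difference 3.31, SE 0.32, adjusted p 4.17e-05).

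The direction of the calls differed by chromosome. Chromosome 11 had 440 genes tested, 19.1% called lower and 8.86% higher, with a median difference of -0.52. On chromosome 4, 21.8% of 197 genes were lower, with a median of -0.34. On chromosome 9, 11.6% of 259 genes were lower (median -0.39). On chromosome 18, 19.3% of 88 genes were lower (median -0.37), on chromosome 13, 15.5% of 116 (median -0.49), and on the X chromosome, 18.1% of 215 (median -0.46). The reverse was seen on chromosome 22, where 16.9% of 183 genes were higher and 5.46% lower (median 0.28), and on chromosome 10, where 13.9% of 274 were higher and 2.19% lower (median 0.20). Over all genes 10.9% were higher and 8.58% lower.

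These medians were much the same in the untreated and the antibody-treated pair of arrays, at -0.52 and -0.43 for chromosome 11 and -0.50 and -0.41 for chromosome 13. Against the 4 HT29-derived clones the median stayed at -0.47 on chromosome 11 and at -0.35 on the X chromosome. It was -0.26 on chromosome 9, -0.12 on chromosome 18 and 0.32 on chromosome 10, and 0.21 on chromosome 13, 0.04 on chromosome 4 and 0.018 on chromosome 22. On chromosome 13 the clones themselves differed from uncloned HT29 by a median of -0.65, and on chromosome 22 by 0.40. The genes of a chromosome are not independent, the chromosomes were picked after their values were seen, and DNA copy number was not measured here.

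**Figure D5:**
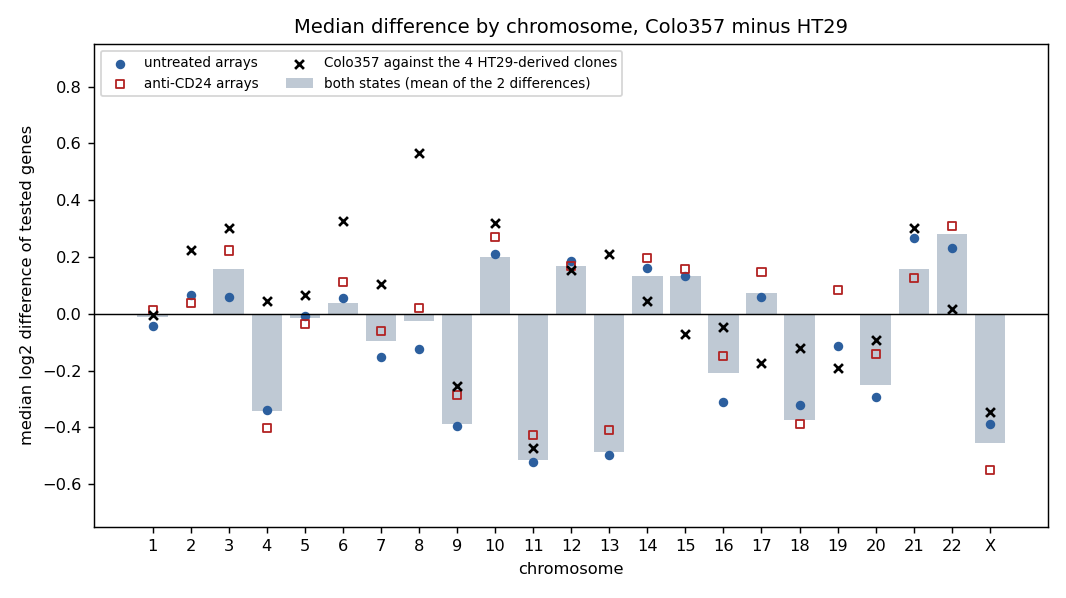
Median log2 difference, Colo357 minus HT29, of the tested genes of each chromosome (bars), the same for the untreated arrays (blue circles) and the antibody-treated arrays (open red squares), and for Colo357 against the 4 HT29-derived clones (black crosses). Chromosomes 11, 13 and X have the lowest bars, and the cross for chromosome 13 lies on the other side of 0.

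The clones differed strongly from uncloned HT29 in several genes, among them CDH1, TM4SF4, ALDH1A1 and S100A4. That they derive from HT29 rests on their labels, and so does each comparison with them. Of the 1319 called genes, 801 (60.7%) also had both Colo357 arrays outside the range of all 6 HT29-derived arrays, 473 of those higher and 328 of those lower in Colo357. Over all tested genes that was the case for 22.8% (1545). For CGA, KRT5, KRT7, VIM, HOXC10, IL32 and CSTA among the genes higher in Colo357, and LYZ, KRT20, BMP4, GSTT1 and MALL among those lower, all 6 lay on one side. For TM4SF4, LGALS4, CD24, ALDH1A1 and S100A4 they did not, because 1 or more clones read at or below Colo357. The clones carry shRNA vectors, 3 of the 4 against CD24, so they are no replicates of HT29.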

How the data were processed

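Per the labels' protocols, total RNA of cultured cells was checked on a Bioanalyzer and hybridised to HG-U133A arrays. The deposited values are linear intensities made with MAS5, per the submitters' processing notes. The version and scaling settings were not given in the sources used here. The values were not rescaled. Of 22277 probe sets 62 were controls, 19064 had 1 gene symbol, 1043 had several and 2108 had none. Symbols came from a platform annotation of a related array and were updated through Entrez IDs for 19052 probe sets. After a pseudocount of 10 and log2, limma 3.58.1 in R 4.3.3 fitted line and antibody state to the 4 arrays (1 residual and 9.29 prior degrees of freedom), two-sided. Each gene's probe set was the brightest over all 8 arrays. Genes above a mean of 5.85 (log2) over the 4 were tested. The fit was tested on simulated data.

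Named genes were the 15 per direction with the largest gap between the nearest arrays of the lines among called genes, up to 6 called members per list and direction by the same gap, and defining lineage genes whatever their call. Cell type markers came from a separate list. Genes named outside these are said to be so. The members, the 47 lists and the alternatives were chosen with earlier results of these data known. The labels do not say that arrays came from separate cultures, so p-values measure only the spread between these arrays, which may be technical. Across probe sets the correlation was 0.961 within HT29, 0.939 within Colo357 and 0.871 to 0.895 between lines. The dap spike-in was higher on the antibody arrays (595.9 and 922.9) than on the untreated ones (277.1 and 274.8), and its part in the results was not tested. Genes most like CDX1 over the arrays are not given because CDX1 was dim on all 8. The number of arrays limits the precision.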

Additional observations from a re-analysis of the deposited data

Results flagged for a closer look

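VIL1, KRT19 and CDKN2A differed between the lines in opposite directions in the 2 antibody states. VIL1, the microvillus protein villin, differed by 1.34 (log2, Colo357 minus HT29) between the untreated arrays and by -0.84 between the antibody-treated arrays. CDKN2A differed by 0.015 between the untreated arrays and by -0.052 between the treated ones. KRT19, a keratin of simple epithelia, differed by 1.02 and by -0.094. Each state has 1 array per line, and the difference between the states was not tested.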

How the results depend on the processing

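The 1319 called genes became 517 with a filter at the 75th percentile, 649 without _x_at and _s_at probe sets, 423 without the antibody block, 387 with all 8 arrays and 699 with the clones as the HT29 side. With any 1 array left out, and then without the block, 462 to 536 were called. In those fits the lone array of a line is assumed to vary like the other line. The share of calls that were higher in Colo357, 55.9%, was 69.1% with no filter, 41.2% with the filter at the 75th percentile, 71.2% without the block, 40.5% against the clones, and 77.1% and 80.8% without the untreated and the treated HT29 array. Genes on one side (3405) became 5639 with no filter, 1767 at the 75th percentile, 1931 without the _x_at and _s_at probe sets, and 4840 to 5364 with 1 array left out. Genes whose nearest arrays were 2-fold apart (702) became 1087, 239 and 408 under the first 3 of these, and 1081 to 1273 with 1 array left out. The filters test other numbers of genes, and leaving out an array loosens the demand on both sides; the other causes were not tested.

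Of 209 named genes tested, 201 were called. Without the block 53 of them lost the call, with all 8 arrays 51 of the 150 then tested, and without 1 array 38 to 52. With the clones as the HT29 side, 14 reversed: ABCG2 to 1.60, ALDH1A1 to 4.62, ANO1 to 0.089, CD24 to 1.24, CDH1 to 6.09, CDKN2A to 0.19, COL1A1 to -0.0041, CXCR4 to 0.37, EHF to 0.26, EPCAM to 0.44, KRT13 to 0.36, LGALS4 to 0.18, S100A4 to 2.20 and TYMS to 0.18. CDKN2A also turned to 0.070 with quantile normalization, 0.13 with the mean of probe sets and 0.30 without _x_at and _s_at probe sets, and ranged from -0.18 to 0.14 with 1 array left out. VIL1 ranged from -0.58 to 1.07 with 1 array left out, and KRT19 from -0.071 to 1.00. The antibody block pairs the lines within each antibody state. The labels give no replicate numbers.

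The choice of probe sets by brightness over the 4 arrays compared was added after seeing the data. It called 1348 genes, 748 of them higher, and 1309 genes were called under both choices. Of the named genes, SUCLG2 lost its call at -0.99. A leukocyte list other than the markers summed above had 2 genes tested, LYZ among them, and a median of -5.01. With this choice 3 of that list were tested and the median was -1.32.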
